A study of Mus musculus with 8 samples.

Results

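The scavenger and apoptotic-cell uptake receptors examined here are *Lrp1*, *Cd36*, *Msr1*, *Mertk*, *Axl*, *Cd68*, *Stab1*, *Trem2*, *Scarb1* and *Cd163*. They are a list of 10 genes named for their known function, out of 21866 protein-coding genes of GENCODE M21. The list was drawn up with earlier results of these data known, so its shares are description only. MeRIP-Seq was performed on bone marrow-derived macrophages (BMDMs) to ask where m6A lies on mRNA with and without *Mettl3*. Bone marrow came from C57BL/6 mice aged 8 weeks and was cultured for 7 days with 40 ng/mL M-CSF. WT mice were *Mettl3* fl/fl Lyz2+/+ and KO mice were *Mettl3* fl/fl Lyz2cre/+ (*Mettl3*-/- in the labels), so that the floxed *Mettl3* allele was shared and only KO mice carried Cre. Each genotype had 2 mice, and an m6A immunoprecipitation (IP) and an input library per mouse gave 8 libraries and 4 deposited peak lists, here WT-1 and WT-2 for WT mice and KO-1 and KO-2 for KO mice. Lyz2-Cre is expressed in macrophages, but also in granulocytes and some dendritic cells, and deletion in KO BMDMs is incomplete by the study's own measurement of *Mettl3* mRNA.

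Macrophages clear dying cells, lipoproteins and debris through surface receptors that bind phosphatidylserine, bridging proteins that coat it, or modified lipids and polyanions. Bound cargo is engulfed and passed to lysosomes, and cholesterol taken up in this way is exported again. N6-methyladenosine (m6A) is placed on mRNA by a complex whose catalytic subunit is METTL3, mostly at a GGAC-like sequence, in long internal exons and around the stop codon, and it is known to affect the decay, splicing and translation of an mRNA.

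In a peak list, a peak is a stretch of RNA that the authors' peak caller found to be richer in the IP than in the input. The 4 lists held between 6159 and 6684 peaks, of which between 94.8% and 96.2% could be assigned to a protein-coding gene by overlap with its exons on the same strand. They hold no read counts, so the depth behind a peak is unknown, and a gene with no peak may be unmethylated, methylated below the caller's reach, or too low in the cells. Scores of at least 3100 made up 10.3 and 13.5% of the WT-1 and WT-2 lists, and 16.2 and 19.5% of KO-1 and KO-2, so high scores were more frequent in the KO lists over all genes. *Mettl3* had no listed peak, so its peaks give no check of the genotypes. Among macrophage markers, *Fcgr1* had 1 peak in WT-1 and 2 in WT-2 and none in KO, *Cd14* had a peak only in WT-2, and *Adgre1*, *Csf1r*, *Itgam*, *Lyz2*, *Spi1* and *Cebpa* had none. None of 6 neutrophil markers (*Ly6g*, *S100a8*, *S100a9*, *Mpo*, *Elane*, *Camp*), 4 dendritic cell markers (*Flt3*, *Zbtb46*, *Itgax*, *Cd209a*) or the B cell markers *Cd79a* and *Ms4a1* had a peak. Of 4 T cell markers, *Cd4* had 1 peak in each WT list and none in KO, while *Cd3e*, *Cd3g* and *Cd8a* had none. Of 4 fibroblast markers, *Pdgfra* had a peak in every list but WT-2 and *Col1a1* in KO-1, while *Col1a2* and *Dcn* had none. Peak lists thus check the cell type only weakly, because a marker with no m6A gives no peak.

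Of the 10 receptor genes, 4 had a peak in at least 1 list (*Lrp1*, *Msr1*, *Mertk* and *Cd163*), or 40% against 31.9% of all protein-coding genes. The genes compared were not matched for expression, since no read counts were used. *Cd36*, *Axl*, *Cd68*, *Stab1*, *Trem2* and *Scarb1* had none in any list. A peak was present on 4 receptor genes in WT-1 and 3 in WT-2 beside 4 in KO-1 and 4 in KO-2, averaging 3.5 ± 0.707 (SD, n = 2) for WT and 4 ± 0 (SD, n = 2) for KO BMDMs. The number of peaks on these genes was 6 in each of the 4 lists. *Lrp1*, *Msr1* and *Mertk* had a peak in all 4 lists, 3 of the 4 receptor genes with peaks, against 30.5% of all genes that had any peak. No receptor gene was marked in both WT mice and neither KO mouse, a pattern of 3.97% of all genes with a peak, and none had the reverse, a pattern of 4.89%. The latter count rests on WT-1, since without it *Cd163* was marked in both KO mice and not in WT. In these bulk cultures, fewer cells with a transcript and less of it per cell cannot be told apart.

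When peaks sharing 1 bp or more of a strand were merged, the 24 peaks on receptor genes formed 9 regions. A peak was present in all 4 lists in 3 of the 9 regions (33.3%), against 17.8% of all merged regions. A single list held 2 of the 9 (22.2%), against 49.4% of all regions. One region, in the last exon of an *Msr1* isoform, was marked in both WT mice and neither KO mouse, where 3.32% of all regions did so. No region was held by both KO lists and neither WT list, which was the case for 6.19% of all regions.

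**Figure D1:**
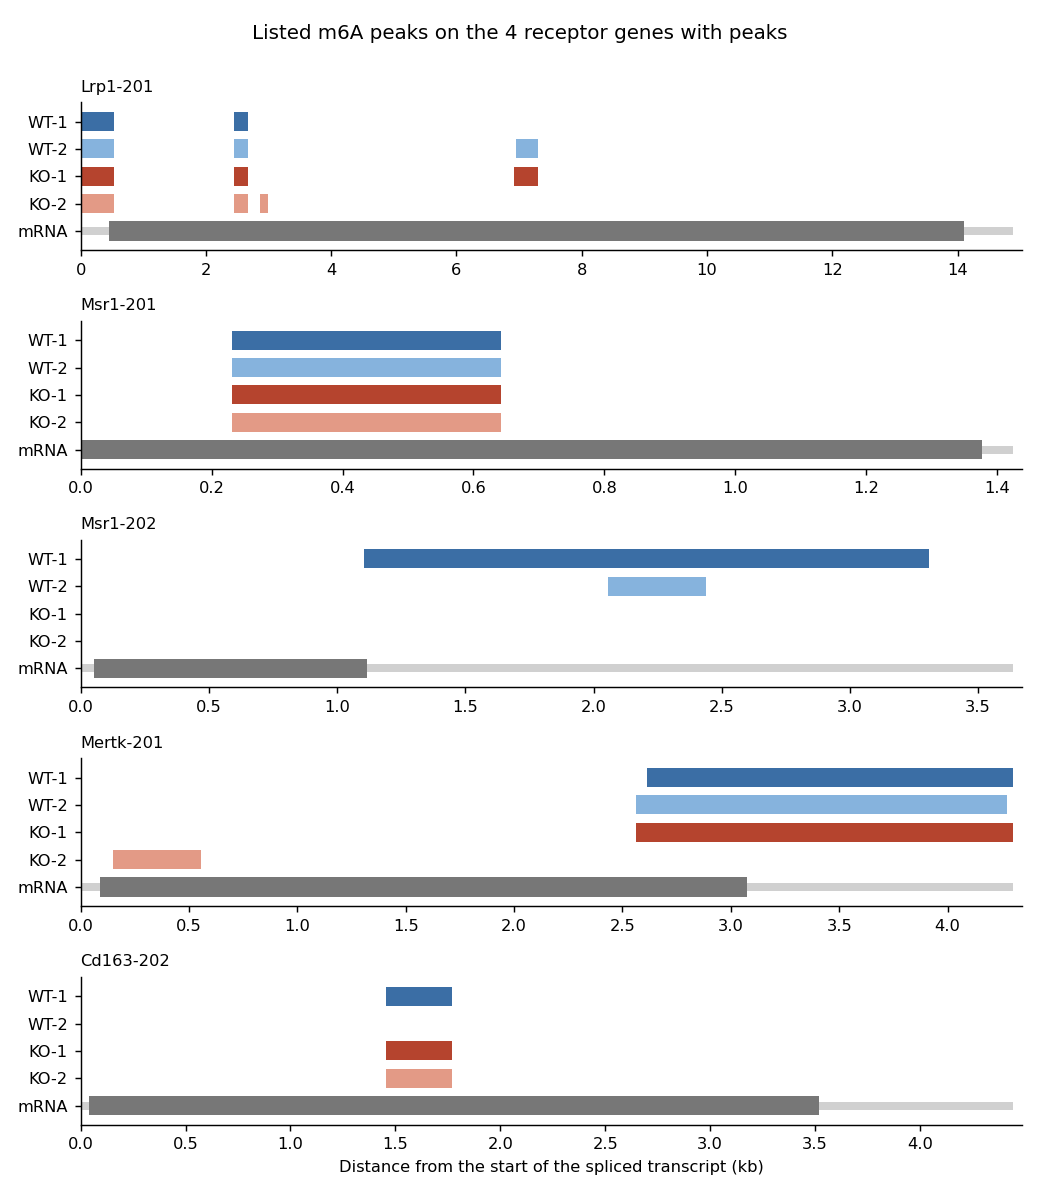
Peaks of the 4 lists drawn along the spliced transcripts of *Lrp1*, *Msr1* (2 isoforms), *Mertk* and *Cd163*. The x axis is the distance from the transcript start in kb. Each coloured bar is the part of 1 peak in 1 list that lies in exons of the transcript drawn. The thick grey bar is the CDS and the thin grey bars are the untranslated regions. *Lrp1* exons 1 and 13 and *Msr1* exon 4 carry a bar in all 4 lists, and the last exon of *Msr1-202* carries bars in the WT lists alone.

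*Msr1* encodes the class A macrophage scavenger receptor, which binds modified low-density lipoprotein and other polyanions. The gene lies at chr8:39581685-39642673 on the minus strand of GRCm38. Its exon 4, which holds codons 78 to 214 of 458, was listed as a peak from its first to its last base, chr8:39623926-39624335, in all 4 lists. The score was 3100 in WT-1 and 1994.6 in WT-2 beside 3100 in KO-1 and 3100 in KO-2. Scores are not comparable between lists, so each was also given as a rank, the percent of peaks in its own list with an equal or lower score. The rank was 99.7 in WT-1 and 77.8 in WT-2 beside 99.4 in KO-1 and 99.3 in KO-2. In 3 of 4 mice, of both genotypes, this peak had the score of 3100, which it shared with other peaks of its list. Tied peaks all take the highest rank of their tie. Scores of at least 3100 made up 10.3% of WT-1, 16.2% of KO-1 and 19.5% of KO-2, so the ranks place the peak only within those shares. The 410 bp hold a single GGAC, at codon 124, in which the third letter of the motif is the A that can be methylated. It is shown with its flanks because it is the one GGAC under the receptor peak with the same edges in all 4 lists. Here and in what follows, GGAC is in capitals and the sequence runs 5′ to 3′ on the transcript strand of GRCm38 (chr8:39624187-39624207).
*Msr1* exon 4: cacatgaaGGACatggaggag
Among merged regions between 0.8 and 1.2 times as wide, 77.8% hold at least 1 GGAC, so the match itself is common.

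The other *Msr1* peaks lay in the last exon of a shorter coding isoform, *Msr1-202*, which has 9 exons, 354 codons and a 3′-UTR of 2518 nt that the isoform with 458 codons lacks. Splicing of *Msr1* is known to give receptor forms that differ at the C-terminal end. WT-1 had a peak of 2202 bp at chr8:39603781-39605982, with a score of 1288.79 (rank 76.0). WT-2 had a peak of 379 bp at chr8:39604653-39605031, wholly inside that of WT-1, with a score of 830.35 (rank 55.4). Neither KO list had a peak in this exon. The WT-1 peak also spans the stop codon, with 8 bp of CDS and 2191 bp of 3′-UTR. The 3′-UTR part of *Msr1-202* was thus marked in both WT mice and in neither KO mouse, while exon 4 of the same gene was marked in all 4. *Fcgr1* and *Cd4* had peaks in the same lists, and their part in this result was not tested. The call remained when only the upper 50% of each list by score was kept, but it was lost when a pair of peaks had to share 50% of their widths, because the WT peaks differ in width. The 379 bp shared by WT-1 and WT-2 hold a single GGAC, which lies 1227 nt past the stop codon with its A at position 39604745 of chromosome 8, and it is followed by T (chr8:39604735-39604755).
*Msr1-202* exon 9, shared by WT-1 and WT-2: gtttttcaGGACtttcctctg
GGACT was found in 37.3% of regions of like width and GGAC in 76.3%. The wider WT-1 peak holds 7 GGAC in all, of which these further 2 are also GGACT (chr8:39604435-39604455 and chr8:39604036-39604056).
*Msr1-202* exon 9, WT-1 only: tcatatcaGGACtgaaagaat
*Msr1-202* exon 9, WT-1 only: gtatgaatGGACtagttattc
The 3 GGACT of this exon were the only ones on the receptor genes' peak regions.

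*Lrp1* encodes a very large endocytic receptor of the low-density lipoprotein receptor family, which takes up apolipoprotein E-rich lipoproteins and protease complexes and acts with calreticulin in the uptake of apoptotic cells. It lies at chr10:127538161-127621148 on the minus strand, with 89 exons and 4545 codons in its longest coding transcript. A peak at exon 1, chr10:127620618-127621148, was listed in all 4 mice. The score was 3045.13 in WT-1 and 498.12 in WT-2 beside 3100 in KO-1 and 1294.19 in KO-2, or ranks of 89.6, 39.1, 99.4 and 62.6. The ranks of WT and KO mice overlapped. The region covers 461 bp of 5′-UTR and 70 bp of CDS, and so the start codon and codons 1 to 24. Its 3 GGAC all lie in the 5′-UTR (chr10:127620755-127620775, chr10:127620731-127620751 and chr10:127620716-127620736), and are shown in transcript order because the 5′-UTR is the least frequent place of a peak midpoint, with between 3.03 and 4.53% of those placed in a list.
*Lrp1* exon 1, first: ataaagggGGACcccccaatt
*Lrp1* exon 1, second: gggggcgaGGACaagaagtaa
*Lrp1* exon 1, last: aagtaacaGGACcagagggtg

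The other *Lrp1* region found in all 4 lists lay at exon 13, chr10:127589361-127589777. Its score was 675.47 in WT-1 and 534.03 in WT-2 beside 1569.13 in KO-1 and 459.73 in KO-2. The ranks were 59.1, 41.6, 72.6 and 35.2, so the KO lists held both the highest and the lowest rank. The exon is 223 bp long in the longest coding transcript and holds its codons 661 to 735. Each peak also ran past the exon, so that up to 194 bp of the merged region are intronic in that transcript. Of the 4 coding transcripts of *Lrp1*, 1 other holds all 374 bp shared by the lists as exon. The region has 12.0 GGAC per kb, the highest density of the 9 regions. All 5 GGAC lie in the 223 bp, within codons 666 to 712. They are shown in transcript order (chr10:127589754-127589774, chr10:127589738-127589758, chr10:127589729-127589749, chr10:127589693-127589713 and chr10:127589614-127589634), since the first 3 stand close together.
*Lrp1* exon 13, codon 666: gatgtactGGACagactggga
*Lrp1* exon 13, codon 671: tgggaggaGGACcccaaggac
*Lrp1* exon 13, codon 674: gaccccaaGGACagtcggcga
*Lrp1* exon 13, codon 686: gcttggatGGACggctcacac
*Lrp1* exon 13, codon 712: tcccagccGGACgcctctact

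Exon 41 of *Lrp1* (378 bp, codons 2156 to 2282) had a peak in 1 mouse of each genotype, WT-2 and KO-1. The scores of 117.5 and 108.87 had ranks of 6.96 and 7.95, so both were weak. The region, chr10:127566457-127566834, holds 4 GGAC. Exon 15, chr10:127587784-127588194, had a peak in KO-2 alone, with a score of 842.5 (rank 52.1). Of its 411 bp, 126 are the exon (codons 803 to 845) and 285 are intron, and its 2 GGAC are exonic. *Lrp1* thus had 2 peaks in WT-1 and 3 in each of the other lists, in 4 regions. On its longest coding transcript these lie within the first 41 exons, with none near the stop codon. The stop codons of its shorter coding transcripts were not examined.

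*Mertk* encodes a receptor tyrosine kinase of the TAM family that binds phosphatidylserine through the bridging proteins GAS6 and protein S, and it is a main receptor for apoptotic cells on macrophages. It lies at chr2:128698956-128802894 on the plus strand. Its last exon, exon 19 (chr2:128801154-128802894, 1741 bp), holds codons 824 to 994, the stop codon and the 3′-UTR of 1227 bp. WT-1 had a peak of 1688 bp there with a score of 479.36 (rank 48.1). WT-2 had a peak of 1713 bp with a score of 152.13 (rank 10.5), and KO-1 one of the whole 1741 bp with a score of 52.63 (rank 0.251). KO-2 had no peak in exon 19. The KO-1 peak was close to the lowest score of its list, and it was lost when each list was trimmed to its 6159 highest peaks, the length of the shortest list. Under that setting exon 19 was marked in the WT mice alone, which raised the number of receptor regions of this kind from 1 to 2. The 4 GGAC of exon 19 are all followed by A, with 2 before the stop codon (at codons 861 and 955, chr2:128801254-128801274 and chr2:128801536-128801556) and 2 after it (462 and 1038 nt on, chr2:128802119-128802139 and chr2:128802695-128802715). They are shown because this region spans a stop codon in 3 of the 4 lists.
*Mertk* exon 19, codon 861: gatgcgcaGGACaaagaatcc
*Mertk* exon 19, codon 955: ttaccggaGGACagactcacc
*Mertk* exon 19, 462 nt past the stop: tcatggccGGACagcaccagg
*Mertk* exon 19, 1038 nt past the stop: aaaaaggtGGACagcacctga

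KO-2 had its one *Mertk* peak elsewhere, over the whole of exon 2 (chr2:128729186-128729594, 409 bp, codons 20 to 156), with a score of 2477.67 (rank 76.6). No other list had a peak in exon 2. Counted by gene, *Mertk* was therefore present in all 4 lists, but the KO-2 peak did not overlap those of the other mice. Exon 2 holds 2 GGAC, at codons 57 and 95 (chr2:128729287-128729307 and chr2:128729402-128729422).
*Mertk* exon 2, codon 57: tccagccgGGACcagctgcca
*Mertk* exon 2, codon 95: acaccattGGACacatagtac

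*Cd163* encodes a scavenger receptor of monocytes and macrophages for haptoglobin-haemoglobin complexes. It lies at chr6:124304656-124330527 on the plus strand. Its only peak covered exon 7 from end to end, chr6:124317302-124317616 (315 bp, codons 473 to 578 of 1159). The score was 531.39 in WT-1, 1666.13 in KO-1 and 1504.88 in KO-2, with ranks of 51.4, 73.8 and 66.2, and WT-2 had no peak. Both KO lists thus ranked this peak above the 1 WT list that held it. The exon holds a single GGAC, at codon 537 (chr6:124317485-124317505), shown because no other GGAC lies under the *Cd163* peak. GGAC was found in 74.1% of regions of like width.
*Cd163* exon 7: aaggaagtGGACagatctggg

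**Figure D2:**
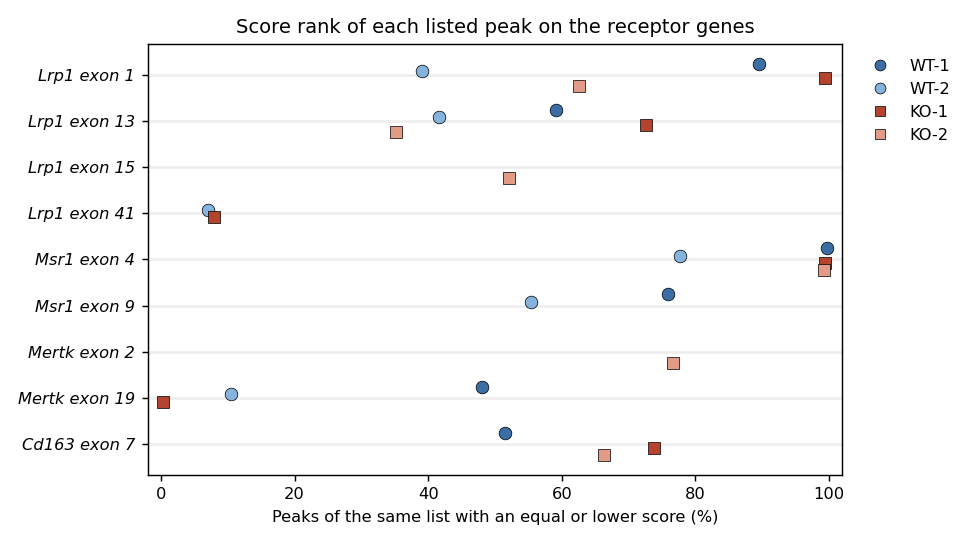
Score rank of the 24 peaks on receptor genes, by region and list. The x axis is the percent of peaks of the same list with an equal or lower score, circles are WT mice and squares are KO mice. *Msr1* exon 4 lies at 77.8 or above in all 4 lists, *Lrp1* exon 41 below 8 in both lists that hold it, and *Mertk* exon 19 falls from 48.1 in WT-1 to 0.251 in KO-1.

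The median rank of the receptor peaks was 67.5 in WT-1 and 40.4 in WT-2 beside 73.2 in KO-1 and 64.4 in KO-2, where that of all assigned peaks is close to 50 by definition. These averaged 54.0 ± 19.2 (SD, n = 2) for WT and 68.8 ± 6.22 (SD, n = 2) for KO BMDMs, so the WT lists lay on both sides of KO-2.

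The 6 receptor genes with no peak were examined for the features of their transcripts. *Cd36* encodes a class B scavenger receptor for oxidized lipoproteins and long-chain fatty acids, and its transcript of 3399 nt has a longest exon of 1660 bp and 10 GGAC. *Scarb1*, which encodes the related receptor for high-density lipoprotein, has 2521 nt, a longest exon of 779 bp and 10 GGAC. *Axl*, a TAM receptor like *Mertk*, has a transcript of 4265 nt and a longest exon of 1741 bp, the same length as that of *Mertk*, with 30 GGAC against 17 on *Mertk*. In all 3 genes the longest exon is wider than the narrowest listed peak, which was 300 bp.

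*Stab1* encodes stabilin-1, a large receptor for phosphatidylserine and other ligands. Its transcript of 7999 nt has 43 GGAC and 69 exons, of which none is longer than 230 bp. Of 1913 genes with a longest exon under 300 bp, 4.76% had a peak, against 34.5% of the other genes. *Stab1* was the only receptor gene in this class. Exon 15 of *Lrp1*, of 126 bp, was covered by a peak of KO-2 that ran into the intron. Peaks at its exon 13, of 223 bp, ran past the exon into bases that another coding transcript holds as exon. The part of exon length in the lack of a *Stab1* peak was not tested. *Trem2*, which encodes a lipid-sensing receptor that signals through TYROBP, has 1056 nt, a longest exon of 351 bp and 5 GGAC. *Cd68*, which encodes a heavily glycosylated protein of macrophage lysosomes, has 1008 nt, a longest exon of 461 bp and 8 GGAC. Transcripts under 2000 nt had a peak in 14.8% of all genes, those from 2000 to under 5000 nt in 38.5% and longer ones in 54.1%. These lengths are those of the transcript with the longest CDS. By that measure *Msr1*, with 1424 nt, was the 1 of 3 receptor genes under 2000 nt with a peak, but its isoform *Msr1-202*, on which 1 of its 2 regions lies, has 3636 nt.

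**Figure D3:**
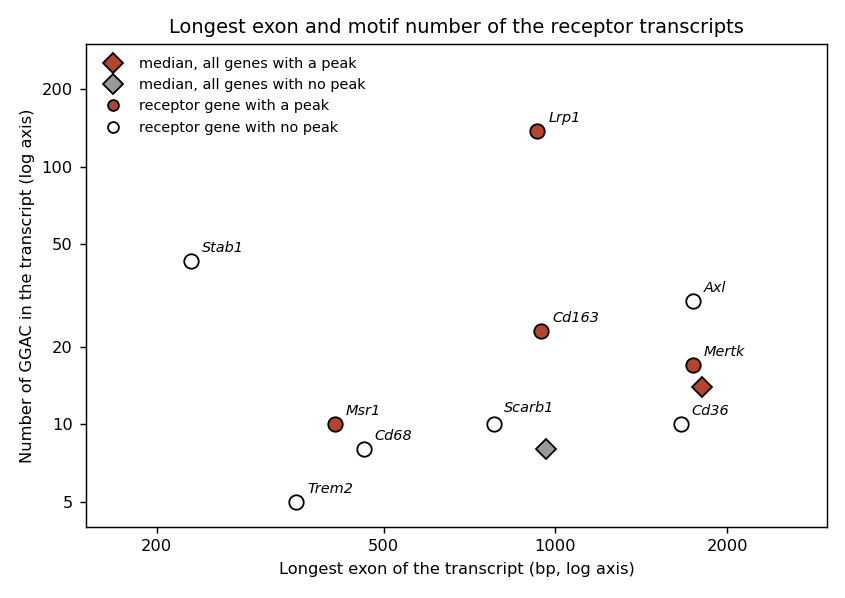
Longest exon (x axis, bp) and number of GGAC (y axis) of the coding transcript with the longest CDS of each receptor gene, both on log axes. Filled circles are the 4 genes with a peak and open circles the 6 without, and diamonds are the medians of all genes with a peak (1811 bp and 14 GGAC) and with none (961 bp and 8 GGAC). *Stab1* has the shortest longest exon, 230 bp, and *Axl* lies beside *Mertk* with more GGAC and no peak. The *Msr1* point leaves out *Msr1-202*, whose longest exon has 2529 bp.

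The density of GGAC overlapped between receptor transcripts with and without a peak. It was 9.27 per kb in *Lrp1* (138 in all), 7.02 in *Msr1*, 5.18 in *Cd163* and 3.95 in *Mertk*. The genes with no peak held 7.94 per kb in *Cd68*, 7.03 in *Axl*, 5.38 in *Stab1*, 4.73 in *Trem2*, 3.97 in *Scarb1* and 2.94 in *Cd36*. The medians over all genes were 4.09 per kb with a peak and 3.95 with none.

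To compare genotypes in 1 number per gene and mouse, the exon bases covered by peaks were summed, over exons of any coding transcript. On *Msr1* they came to 2612 bp in WT-1 and 789 in WT-2 beside 410 in KO-1 and 410 in KO-2, averaging 1700.5 ± 1289 (SD, n = 2) for WT and 410 ± 0 (SD, n = 2) for KO BMDMs. Both WT lists lay above both KO lists. The KO minus WT difference was -1290.5 bp, with p = 0.333 in the two-sided exact permutation test, the smallest p that 2 mice against 2 allow. Its size rested on the width of the WT peaks, as it was -379 bp without WT-1 and -2202 bp without WT-2. Among all genes with a peak, 8.65% had more bases covered in each WT mouse than in either KO mouse, and 18.8% had the reverse. Of the receptor genes, *Msr1* had the first pattern and none had the reverse.

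On *Lrp1* the covered bases were 948 in WT-1 and 1280 in WT-2 beside 1271 in KO-1 and 1031 in KO-2, averaging 1114 ± 235 (SD, n = 2) for WT and 1151 ± 170 (SD, n = 2) for KO BMDMs. The difference of 37 bp was smaller than the spread between mice (two-sided exact permutation test, p = 1), and it turned to -129 without WT-1 and to -83 without KO-1. On *Mertk* they were 1688 in WT-1 and 1713 in WT-2 beside 1741 in KO-1 and 409 in KO-2, averaging 1700.5 ± 17.7 (SD, n = 2) for WT and 1075 ± 942 (SD, n = 2) for KO BMDMs. KO-1 lay above both WT lists and KO-2 below them, so the difference of -625.5 bp (two-sided exact permutation test, p = 1) came from KO-2, and it was 40.5 without that mouse and -1291.5 without KO-1. *Cd163* had 315 bp covered in WT-1 and 0 in WT-2 beside 315 in KO-1 and 315 in KO-2, averaging 157.5 ± 223 (SD, n = 2) for WT and 315 ± 0 (SD, n = 2) for KO BMDMs. That difference of 157.5 bp (two-sided exact permutation test, p = 1) rested on WT-2 alone, and was 0 without it and 315 without WT-1.

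**Figure D4:**
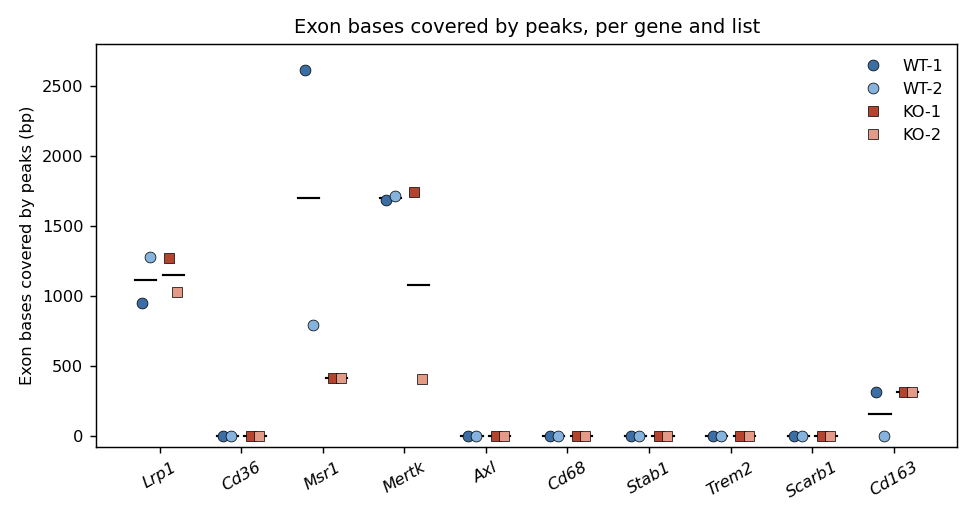
Exon bases covered by peaks on each of the 10 receptor genes (y axis, bp). Circles are WT mice, squares are KO mice and black lines are the means of 2 mice. The WT and KO points of *Msr1* do not overlap, those of *Lrp1* and *Mertk* do, and 6 genes lie at 0 in all 4 lists.

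The place and sequence of the peaks were not used to choose the genes. Of the receptor peaks that could be placed on the transcript with the longest CDS, the midpoint lay in the CDS for 3 of 5 in WT-1 (60%), 3 of 5 in WT-2 (60%), 4 of 6 in KO-1 (66.7%) and 4 of 5 in KO-2 (80%). These averaged 60% ± 0 (SD, n = 2) for WT and 73.3% ± 9.43 (SD, n = 2) for KO BMDMs. Over all genes the CDS held 49.4, 47.5, 54.9 and 52.3% of the midpoints in the same order of lists. The *Msr1-202* peaks of WT-1 and WT-2 are not among the peaks placed, and they would add 1 peak to the 3′-UTR in each. With so few peaks, 1 peak moves the share of a list by about as much as the lists differ.

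Of the 24 receptor peaks, 13 (54.2%) ran exactly from one end of an exon to the other, as at *Msr1* exon 4, *Cd163* exon 7 and *Mertk* exon 2. Both edges lay at exon ends in 9.45% of all peaks, where the 2 ends were not required to be of the same exon. At least 1 edge at an exon end was found for 23 of them (95.8%), against 45.7% of all peaks. For the 13 peaks that fill an exon, the listed position gives the exon and does not place the m6A within it. In these shares an exon counts once for each list that holds it, as *Msr1* exon 4 does in all 4, so the peaks are not all separate places.

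All 9 receptor regions hold GGAC, as do 85.7% of all merged regions. The base after GGAC was A in 15 of 29 GGAC in the receptor regions (51.7%), C in 9 (31.0%), G in 2 (6.90%) and T in 3 (10.3%). In all merged regions it was A in 34.5%, C in 25.5%, G in 10.7% and T in 29.4%. GGAC per kb of peak was 3.77 in WT-1 and 4.76 in WT-2 beside 4.82 in KO-1 and 5.71 in KO-2 for the receptor genes, and between 4.64 and 4.89 for all assigned peaks. The WT-1 value was the lowest, and WT-1 also held the widest receptor peak, on *Msr1-202*.

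Beside the receptors, 76 other genes of uptake were examined by role, and 42 of them (55.3%) had a peak in at least 1 list, against 31.9% of all protein-coding genes. Neither this comparison nor those by role below were matched for expression. The genes of uptake with a peak numbered 29 in WT-1 and 33 in WT-2 beside 25 in KO-1 and 25 in KO-2, so the WT lists lay above the KO lists. Over all genes the numbers with a peak were 4164 and 4346 in the WT lists and 4176 and 4435 in the KO lists, which overlapped. Of the 42 genes, 15 (35.7%) had a peak in all 4 lists, 4 (9.52%) in both WT lists but no KO list, and none the reverse. The corresponding shares of all genes with a peak are the 30.5, 3.97 and 4.89% given above.

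Of 10 ligands that bridge dying cells to receptors, 2 (20%) had a peak, *Thbs1* and *Pros1*, which is not far from the 31.9% of all genes. *Thbs1*, which encodes thrombospondin-1, a ligand of CD36, had the same 560-bp peak in exon 3 in all 4 lists, each with a score of 3100. *Pros1*, the protein S gene, had 1 peak in WT-1, and *Gas6*, *Mfge8*, *Apoe* and the C1q genes had none. Among other uptake receptors, 20 of 28 genes (71.4%) had a peak, against 31.9% of all genes. Of these 20, 6 (30%) had a peak in all 4 lists, close to the 30.5% of all genes with a peak, and 2 (10%) in both WT lists alone, against 3.97%. *Lrp12*, a relative of *Lrp1*, had 2 such regions with scores of 3100 in all 4 lists, in exon 5 and in the last exon. *Calr*, the gene of calreticulin, with which LRP1 acts, had a peak in its last exon at 3100 in all 4 lists. *Sorl1*, another relative, had 2 regions in its last exon in all 4 lists.

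The 4 genes marked in both WT mice and in neither KO mouse were *Scarb2*, *Itgav*, *Cd47* and *Adam10*. *Scarb2*, a lysosomal relative of *Cd36* and *Scarb1*, had the same 412-bp peak in its 3′-UTR, chr5:92443873-92444284, in both WT lists, with ranks of 52.5 in WT-1 and 25.9 in WT-2. *Adam10*, a sheddase of several receptors, had overlapping peaks of 407 and 432 bp in its last exon, with ranks of 71.5 and 71.7. *Cd47*, the ligand by which live cells are spared from engulfment, had overlapping peaks of 1482 and 1388 bp with ranks of 34.5 and 23.0. The peaks of *Itgav*, an integrin subunit that binds the bridging protein MFGE8, lay in the last exon in both WT lists but did not overlap. In 3 of these 4 genes the WT peaks overlapped, and for *Itgav* the call rests on the gene and not on a shared place.

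The remaining roles held at most 10 genes each, so that 1 gene moves a share by 10 percentage points or more, and their counts are to be read beside the 31.9% of all genes with a peak. Of 2 genes of the don't-eat-me pair, both had a peak, and *Sirpa*, the receptor of CD47, had 1 in WT-2 and 1 in KO-1. Of 6 adaptors, chaperones and sheddases, 3 had a peak, and *Lrpap1*, the chaperone of LRP1, had 1 in each list, while *Tyrobp*, the adaptor of TREM2, had none. Of 10 genes of the engulfment machinery, 4 had a peak, and the exchange factor partner *Elmo1* had 1 in each list. Of 8 genes of degradation, 2 had a peak, each in 1 WT list. Of 9 genes of lipid response and efflux, 6 had a peak, and the cholesterol exporter *Abca1* had peaks in its last exon in all 4 lists, with 2 in each WT list and 1 in each KO list. The 3 receptors for find-me signals all had a peak, 2 of them in all 4 lists.

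**Figure D5:**
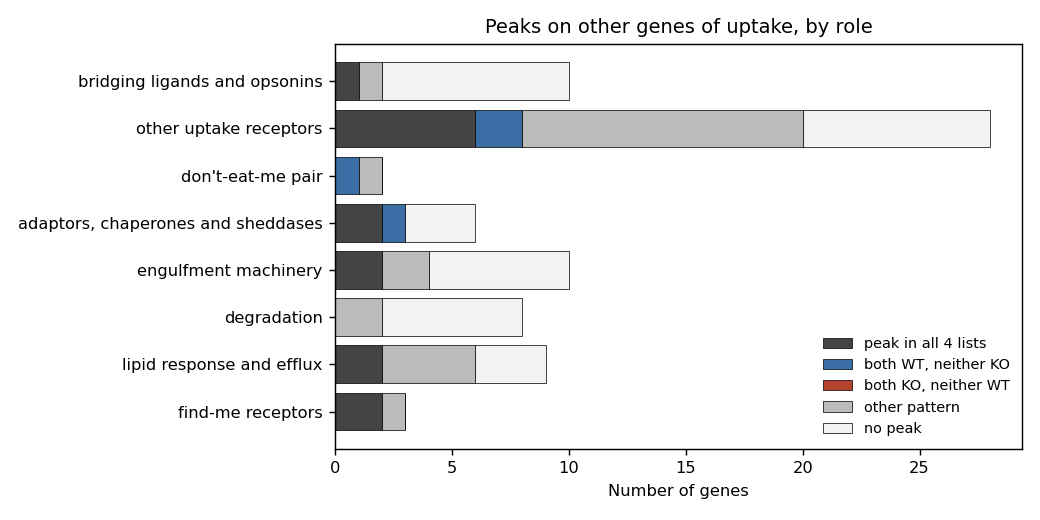
Number of genes (x axis) in each of 8 roles of uptake (y axis) by the lists that hold a peak. Dark bars are genes with a peak in all 4 lists, blue bars both WT and neither KO list, light grey bars another pattern and white bars no peak. No gene of the 76 was marked in both KO mice alone, and other uptake receptors hold the most genes with a peak, 20 of 28.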

How the data were processed

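IP and input libraries of BMDMs from 2 WT and 2 KO mice were sequenced and processed by the authors. The submitters' processing notes name cutadapt 1.9.3, HISAT2 2.0.4 and mm10. The deposited values are a score per peak, called in each mouse without pooling, and the form of the peak names is that of MACS, whose version and settings are not given in the sources used here. Scores ran up to 3233.06 and were used only for ranks within a list. Read counts were not analysed here, so depth and counting error are unknown.

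Start positions were read as 0-based and are printed 1-based, on GRCm38 (mm10). Each peak went to the gene whose same-strand exons it overlapped most (GENCODE M21, protein-coding transcripts, at least 1 bp) and placed on the transcript with the longest CDS, except where noted. Sequences were read from the GRCm38 genome on the transcript strand, where GGAC and GGACT were searched. Genotypes were compared by the two-sided exact permutation test over 6 labellings, or described by presence, beside the same share over all genes. The labels call the replicates biologic, and each list was taken as 1 mouse.

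The members and lists were chosen with earlier results of these data known. All 10 receptors and the cell type markers are named, except that results for some markers are not reported here. Of the 76 other genes, those held by both lists of only 1 genotype and the 5 with the highest median rank of the best peak among those in all 4 lists (ties in order of name, by which *Syk* was left out at the same value as *Abca1* and *Sorl1*) are named with their peaks, and others are examples with peak counts. Alternatives were the upper 50% of each list by score, equal list lengths, assignment by gene span, merging within 100 bp, a reciprocal overlap of 50%, other transcripts, motifs and windows, a replicate block and each list left out. Functions were tested on simulated data. Same-numbered WT and KO mice did not deviate together in covered bases (correlation of deviations -0.0523 over 6971 genes), so the numbers were not taken as pairs. The tools were samtools 1.23.1, pysam 0.24.0, matplotlib 3.10.9 and numpy 2.4.6 with scipy 1.17.1 under Python 3.11.15.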

Additional observations from a re-analysis of the deposited data

How the results depend on the processing

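Of 168 values under alternatives, 141 were classed as the same, 23 as moved and 4 as reversed. Some classed as the same did change. For example, the difference in receptor genes with a peak went from 0.5 to 0 with equal list lengths and without WT-2. The covered-base difference of *Cd163* was 0 without WT-2. With equal list lengths, 2 receptor genes in place of 3 had a peak in all 4 lists. The 6 receptor genes with no peak had none under any alternative, including overlap of the gene span on either strand and exons of all transcripts, both chosen after seeing the data. In the upper 50% of each list by score, where there are fewer peaks to find, the KO minus WT difference was 1.5 for receptor genes with a peak and 1 for their peaks, 1 gene and 1 region remained in all 4 lists, the CDS share was 81.25%, and the covered bases of *Mertk* differed by 204.5 bp. With equal list lengths, the difference in peaks was -0.5, 2 regions were held by both WT lists and neither KO list, and 2 genes had more bases covered in both WT lists. A reciprocal overlap of 50% left 0 regions held by the WT lists alone. With presence in at least 1 list of a genotype, chosen after seeing the data, 2 regions were held by KO lists alone. The CDS share was 56.3% when every exonic base was counted. GGACT in place of GGAC was found in 8.33% of the receptor peaks, and GGAC in the central 200 bp in 66.7%.

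With each list left out in turn, receptor genes held by KO lists alone ran from 0 to 1 (*Cd163*, without WT-1), regions held by WT lists alone from 1 to 2, and regions held by KO lists alone from 0 to 2. Genes with more bases covered in WT ran from 1 to 2 and in KO from 0 to 1. The covered-base difference of *Lrp1* ran from -129 to 203 (-129 without WT-1, -83 without KO-1), and that of *Mertk* from -1291.5 to 40.5 (40.5 without KO-2). With the replicate block, 1 receptor gene, *Cd163*, was called for KO and not WT, although WT-1 also held its peak. No other call changed with the block. The sign-flip test over the pairs cannot give a p below 0.5. The cause of these changes was not tested beyond what the settings themselves show. Capped scores, 2 mice per genotype and the absence of read counts from the values used limit what can be said of single genes.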
